A study of Mus musculus with 9 samples.

Results

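Mouse C2C12 myoblasts that had received an siRNA against Mbnl1 were compared, gene by gene, with C2C12 myoblasts that had received an siRNA against Cugbp1 (current symbol Celf1). The comparison took the 3 arrays of the Mbnl1 siRNA arm and the 3 arrays of the Cugbp1 siRNA arm, 6 of the 9 arrays of the series. The arms were paired by time, and the level was averaged over the times. Arrays of the control siRNA were not used, so a difference does not say which of the siRNAs moved a transcript or whether both did. All 9864 genes whose signal passed an intensity filter were taken, of 19938 genes with a named probe set.

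Each siRNA had 1 array at 0 h, 1 at 2.5 h and 1 at 5 h after 5 ug/ml actinomycin D, a drug that stops transcription, was added to the medium. C2C12 is an established line of mouse skeletal muscle precursor cells, and the cells were kept in medium with 10% serum. Apart from the siRNA the arms had the same treatment. Total RNA was labelled and hybridised to Affymetrix whole-transcript arrays. The labels name no separate cultures, no replicate of any siRNA and time, and no siRNA sequence, so the siRNA and its culture cannot be told apart. All p-values therefore set the siRNA difference against its own variation over the 3 times, and precision is limited by having 6 arrays. Median intensity was 108.34 to 113.01 in the Mbnl1 siRNA arm and 106.89 to 108.48 in the Cugbp1 siRNA arm. The pair of arrays at a given time correlated across probe sets at 0.992, 0.992 and 0.991. Of 9 myoblast markers, 8 passed the filter, among them Myod1 and Cdh15 (Fgfr4 did not).

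MBNL1 and CUGBP1 (CELF1) are RNA-binding proteins that often act on the same transcripts. MBNL1 binds YGCY elements and CUGBP1 binds GU-rich elements, and both regulate alternative splicing and the stability of mRNAs through sites in their untranslated regions. In myotonic dystrophy, repeat RNA sequesters MBNL proteins and CUGBP1 protein rises, so that the balance between these proteins shifts in muscle. The arms compared here each received an siRNA against 1 of these regulators.

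The target of each siRNA was lower in the arm of that siRNA than in the other arm. Mbnl1 was at log2 10.24, 10.05 and 9.79 at 0, 2.5 and 5 h in the Mbnl1 siRNA arm, against 12.33, 12.42 and 12.43 in the Cugbp1 siRNA arm. All 3 Mbnl1 siRNA arrays lay below all Cugbp1 siRNA arrays, and the mean log2 difference was −2.36 ± 0.10 (SE, 3 arrays in each arm, limma, adjusted p = 0.000171), a 5.15-fold lower level. Celf1 was at 11.19, 11.13 and 11.03 in the Mbnl1 siRNA arm, against 9.96, 9.57 and 9.52 in the Cugbp1 siRNA arm. The arms did not overlap, and Celf1 was 2.7-fold higher with Mbnl1 siRNA (1.43 ± 0.07, adjusted p = 0.000215). Both differences check the labels.

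The other members of these families differed less. Celf2, a close relative of Celf1, was at 10.45, 10.43 and 10.46 with Mbnl1 siRNA, against 10.89, 11.00 and 11.03 with Cugbp1 siRNA. It was lower without overlap (−0.53 ± 0.05, adjusted p = 0.000682). Mbnl3 (−0.21 ± 0.05, adjusted p = 0.0235) and Mbnl2 (0.14 ± 0.04, adjusted p = 0.0434) passed the test, but their arrays overlapped between the arms, and both lost the call under several other settings. The cytoskeletal mRNA Actb differed by 0.01 (95% interval −0.09 to 0.10, adjusted p = 0.909).

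Differences between the arms were widespread and mostly small. Of the 9864 genes, 5017 (50.9%) were called at an adjusted p under 0.05: 2058 were higher (20.9%) and 2959 lower (30.0%) with Mbnl1 siRNA. The smallest called difference was 0.117 on the log2 scale and the median size among called genes was 0.292, against 0.156 over all genes. The median difference over all genes was −0.03. A difference of more than 2-fold was called for 75 genes higher (0.76%) and 77 genes lower (0.781%) with Mbnl1 siRNA. Over 4-fold, 7 genes were higher and 1, Mbnl1 itself, was lower. In 3468 genes (35.2%) no Mbnl1 siRNA array overlapped a Cugbp1 siRNA array, 1421 of them higher (14.4%) and 2047 lower (20.8%). Of 3960 probe sets without a single gene symbol, tested apart, 233 were higher (5.88%) and 294 lower (7.42%). All 5017 called genes had the same sign at the 3 times, which the test itself favours. Because 50.9% of genes were called, each gene list below is read against 20.9% higher and 30.0% lower, and against the median of −0.03. Counts of list members without overlap are read against 14.4% higher and 20.8% lower. Leaving out the time term, which leaves the fall of short-lived mRNAs in the residual, gave 624 higher and 951 lower calls.

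**Figure D1:**
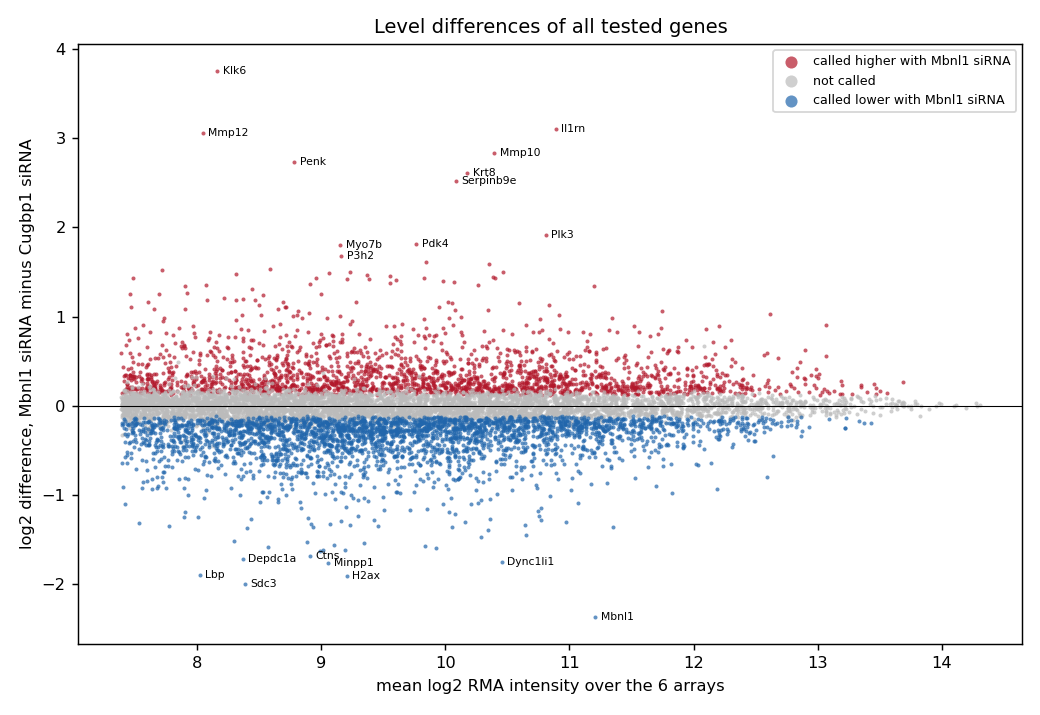
Each point is 1 of 9864 genes, with the mean log2 RMA intensity over the 6 arrays on the x axis and the log2 difference of Mbnl1 siRNA minus Cugbp1 siRNA on the y axis. Red points were called higher (2058), blue points lower (2959) and grey points were not called. Klk6 at 3.75 and Mbnl1 at −2.36 are the extremes.

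The 6 largest increases with Mbnl1 siRNA were in Klk6, Il1rn, Mmp12, Mmp10, Penk and Krt8. Klk6, a kallikrein-related serine protease, was at 9.87, 9.97 and 10.27 with Mbnl1 siRNA, against 6.20, 6.26 and 6.40 with Cugbp1 siRNA. The arms were far apart at each time, a 13.5-fold difference (3.75 ± 0.05, adjusted p = 9.2e-06). Il1rn, the secreted antagonist of the interleukin-1 receptor, was at 12.52, 12.36 and 12.45 against 9.31, 9.41 and 9.30 with Cugbp1 siRNA. It was 8.61-fold higher without overlap (3.11 ± 0.06, adjusted p = 2.87e-05). Mmp12, a metalloproteinase that cleaves elastin, was at 9.87, 9.73 and 9.11 with Mbnl1 siRNA, against 6.47, 6.38 and 6.70 with Cugbp1 siRNA (3.06 ± 0.19, adjusted p = 0.000337). Its difference was smaller at 5 h (2.42) than at 0 h (3.40), and the arms did not overlap. Mmp10, the matrix protease stromelysin-2, was at 11.89, 11.83 and 11.71, against 8.92, 9.16 and 8.85 with Cugbp1 siRNA, again with no overlap (2.83 ± 0.06). Penk, which encodes the precursor of the enkephalin peptides, was at 10.14, 10.06 and 10.24 with Mbnl1 siRNA and at 7.40, 7.34 and 7.52 with Cugbp1 siRNA. Its difference was nearly the same at each time (2.73, 2.72 and 2.73). Krt8, a keratin of simple epithelia, was at 11.36, 11.54 and 11.55 with Mbnl1 siRNA and at 8.72, 9.02 and 8.87 with Cugbp1 siRNA, and its arms lay apart by 2.61 ± 0.05.

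The other 9 of the 15 largest increases had differences of 1.52 to 2.51. They were the clade B serpin Serpinb9e (2.51 ± 0.09), the stress-responsive polo-like kinase Plk3 (1.91 ± 0.17), Pdk4, a kinase that inhibits pyruvate dehydrogenase (1.81 ± 0.06), the microvillar myosin Myo7b (1.80 ± 0.05), the collagen prolyl 3-hydroxylase P3h2 (1.68 ± 0.05), Grasp (1.62 ± 0.10), the mitochondrial calcium-binding protein Efhd1 (1.59 ± 0.04), the basophil protease Mcpt8 (1.54 ± 0.05) and Slc16a4 of the monocarboxylate transporter family (1.52 ± 0.05). In none of the 15 did the arms overlap, and each kept its call under every alternative tested. In the Cugbp1 siRNA arm the means of Klk6, Mmp12 and Slc16a4 lay under the filter value of log2 7.39, where the size of a fold is least certain. With an offset of 32 added to every intensity their differences were 3.30, 2.68 and 1.31.

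Among the decreases, the largest after Mbnl1 itself was that of Sdc3, a cell-surface heparan sulfate proteoglycan. It was at 7.66, 7.24 and 7.28 with Mbnl1 siRNA, against 9.16, 9.40 and 9.60 with Cugbp1 siRNA. The arms did not overlap and the level was 3.99-fold lower (−1.99 ± 0.16, adjusted p = 0.000523). H2ax, a histone variant that is phosphorylated at DNA breaks, was at 9.02, 8.08 and 7.64 with Mbnl1 siRNA and at 10.53, 10.12 and 9.83 with Cugbp1 siRNA (−1.91 ± 0.13). Lbp, the lipopolysaccharide-binding protein, was flat over time in both arms, at 7.08, 7.05 and 7.09 with Mbnl1 siRNA and at 8.95, 9.06 and 8.90 with Cugbp1 siRNA. Its difference was −1.90 ± 0.05 (adjusted p = 5.99e-05), and −1.68 with the offset, as its Mbnl1 siRNA mean lay under the filter value.

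Genes that differed as much included 2 parts of the dynein machinery. Dync1li1, a light intermediate chain of cytoplasmic dynein, was at 10.51, 9.50 and 8.72 with Mbnl1 siRNA, against 11.51, 11.34 and 11.14 with Cugbp1 siRNA. The level fell with time in both arms and lay lower at each time with Mbnl1 siRNA (−1.75 ± 0.25, adjusted p = 0.00319). Pafah1b1 (LIS1), a dynein regulator, was at 9.17, 8.31 and 7.67 with Mbnl1 siRNA and at 10.23, 10.03 and 9.73 with Cugbp1 siRNA (−1.62 ± 0.18). Motor protein genes as a group went both ways. Of 40 dynein, kinesin and microtubule transport genes tested, 11 were higher and 7 lower (median 0.00), and the largest increase was in the axonal kinesin Kif1a (1.02 ± 0.05).

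The remaining large decreases were in genes of several compartments. They were Minpp1, an inositol polyphosphate phosphatase (−1.76 ± 0.23, and −0.74 on a second probe set), the mitotic gene Depdc1a (−1.72 ± 0.16), Ctns, the lysosomal cystine transporter (−1.68 ± 0.26), Bend6 (−1.63 ± 0.10), the mitochondrial ribosomal protein Mrpl36 (−1.62 ± 0.13), the mitotic gene Pimreg (−1.60 ± 0.10), the magnesium transporter Slc41a1 (−1.58 ± 0.15), Fkbp9, a peptidyl-prolyl isomerase of the endoplasmic reticulum (−1.57 ± 0.08), and Mcur1, a regulator of mitochondrial calcium uptake (−1.56 ± 0.15). All of them were without overlap and kept their calls under every alternative tested.

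**Figure D2:**
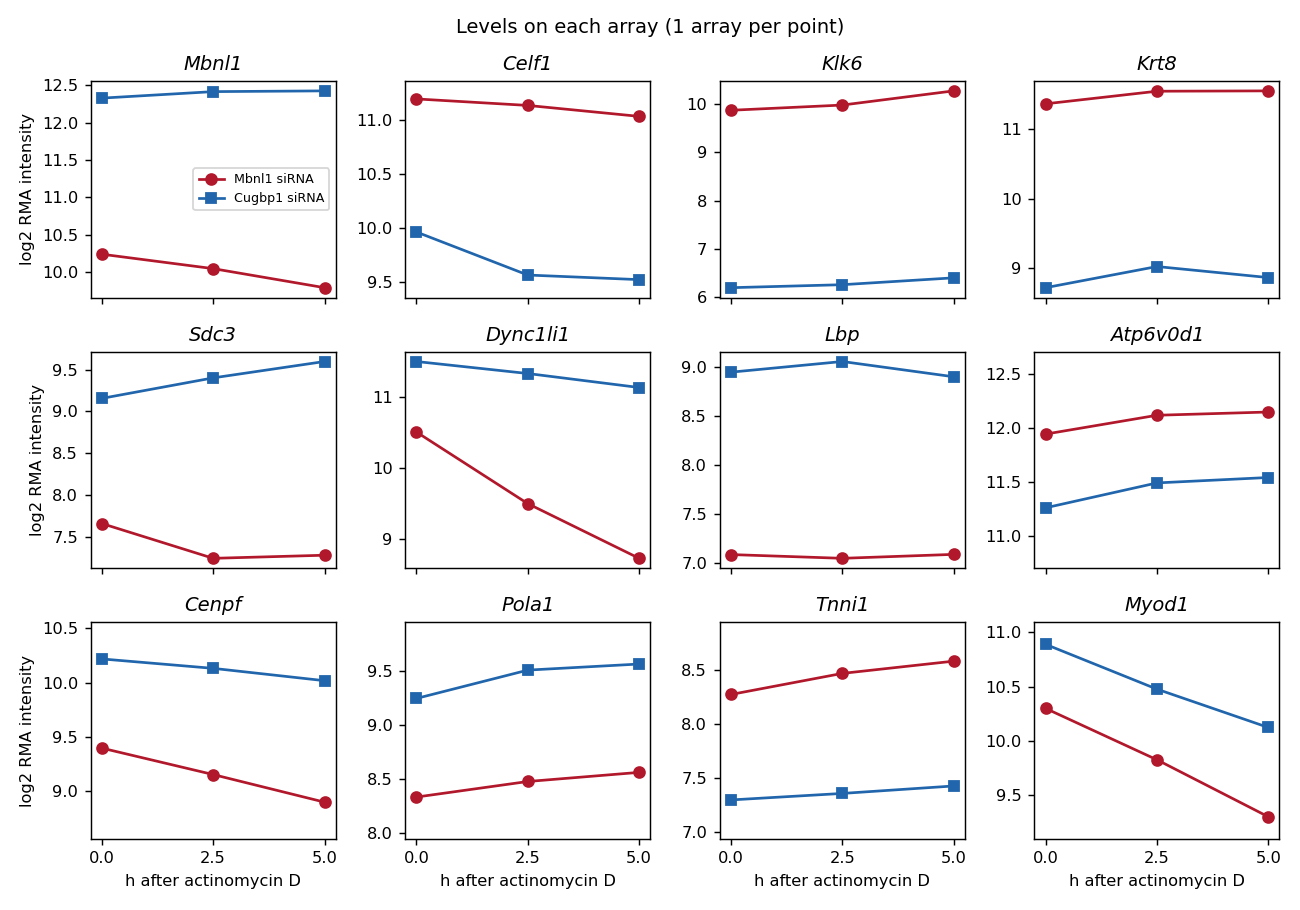
Each panel shows 1 gene, with hours after actinomycin D on the x axis and log2 RMA intensity on the y axis, 1 array per point. Red circles are Mbnl1 siRNA and blue squares Cugbp1 siRNA. The arms of Klk6 and Lbp run parallel, those of Dync1li1 and Sdc3 draw apart, and those of Myod1 fall together with a gap of 0.59 to 0.83.

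After transcription was stopped, the median size of the decreases over 2-fold grew with time and that of the increases over 2-fold stayed level. Among the 77 genes over 2-fold lower, the median difference was −1.01 at 0 h, −1.32 at 2.5 h and −1.45 at 5 h. The size grew at each step in 53 of them (68.8%) and was larger at 5 h than at 0 h in 69 (89.6%). Among the 75 genes over 2-fold higher, the medians were 1.34, 1.32 and 1.31. In these the size grew at each step in 14 (18.7%) and was larger at 5 h in 32 (42.7%). The 15 largest of these increases had growing medians of 1.82, 2.01 and 2.32, although the size was larger at 5 h in 8 of the 15, and the 15 largest decreases had medians of −1.25, −1.84 and −2.07. Over all 2959 genes called lower the medians were −0.27, −0.30 and −0.35, and 2031 (68.6%) had a larger difference at 5 h. Over the 2058 called higher they were 0.29, 0.28 and 0.28, and 954 (46.4%) had one. The median over all tested genes moved less, from −0.02 at 0 h to −0.05 at 5 h. These are descriptions of 1 array pair per time, and whether the widening differs between the directions was not tested.

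**Figure D3:**
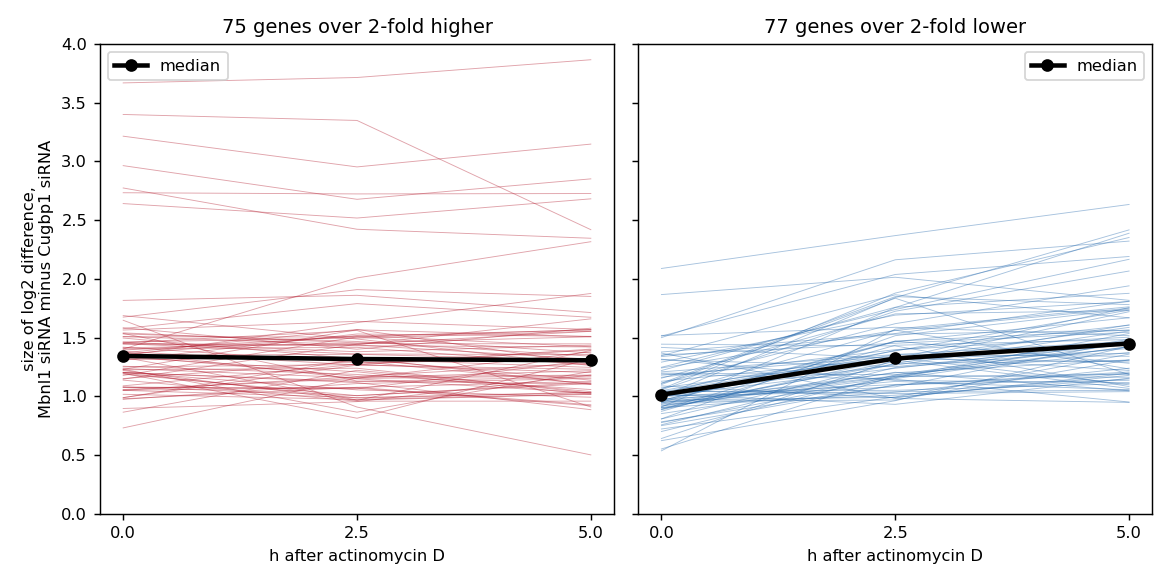
Size of the log2 difference between Mbnl1 siRNA and Cugbp1 siRNA on the y axis against hours after actinomycin D, 1 line per gene, for the 75 genes over 2-fold higher (left) and the 77 over 2-fold lower (right). The black line is the median, which stays near 1.3 on the left and grows to 1.45 at 5 h on the right.

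The 10 genes whose difference changed most between 0 h and 5 h were of several kinds. Ctns had the largest change. It was at 8.90, 8.09 and 7.21 with Mbnl1 siRNA, against 9.81, 9.85 and 9.60 with Cugbp1 siRNA, so that the difference was −0.91 at 0 h and −2.39 at 5 h. Dync1li1, described above, reached −2.42 at 5 h, and Minpp1 went the same way, with −1.06 at 0 h and −2.35 at 5 h. Fam20c, a kinase of secreted proteins, was at 9.55, 8.38 and 7.60 with Mbnl1 siRNA and at 10.09, 9.95 and 9.37 with Cugbp1 siRNA. Its difference was −0.54 at 0 h and −1.76 at 5 h. The transcripts of Mxd1, a repressor that competes with MYC for MAX, and of Btg2, an antiproliferative cofactor of mRNA deadenylation, were higher with Mbnl1 siRNA at 0 h and came together later. Mxd1 was at 9.78, 8.75 and 8.55 with Mbnl1 siRNA and at 8.13, 7.85 and 8.05 with Cugbp1 siRNA. Btg2 was at 8.92, 7.65 and 7.71 with Mbnl1 siRNA and at 7.79, 7.36 and 7.65 with Cugbp1 siRNA, and its mean difference did not pass the test (0.49 ± 0.20, adjusted p = 0.0867). The small cytoplasmic RNA Rny3 differed by −1.23 at 0 h and by −0.14 at 5 h. For H4c4, H4c6 and Ppargc1a the sign of the difference changed between the times.

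**Figure D4:**
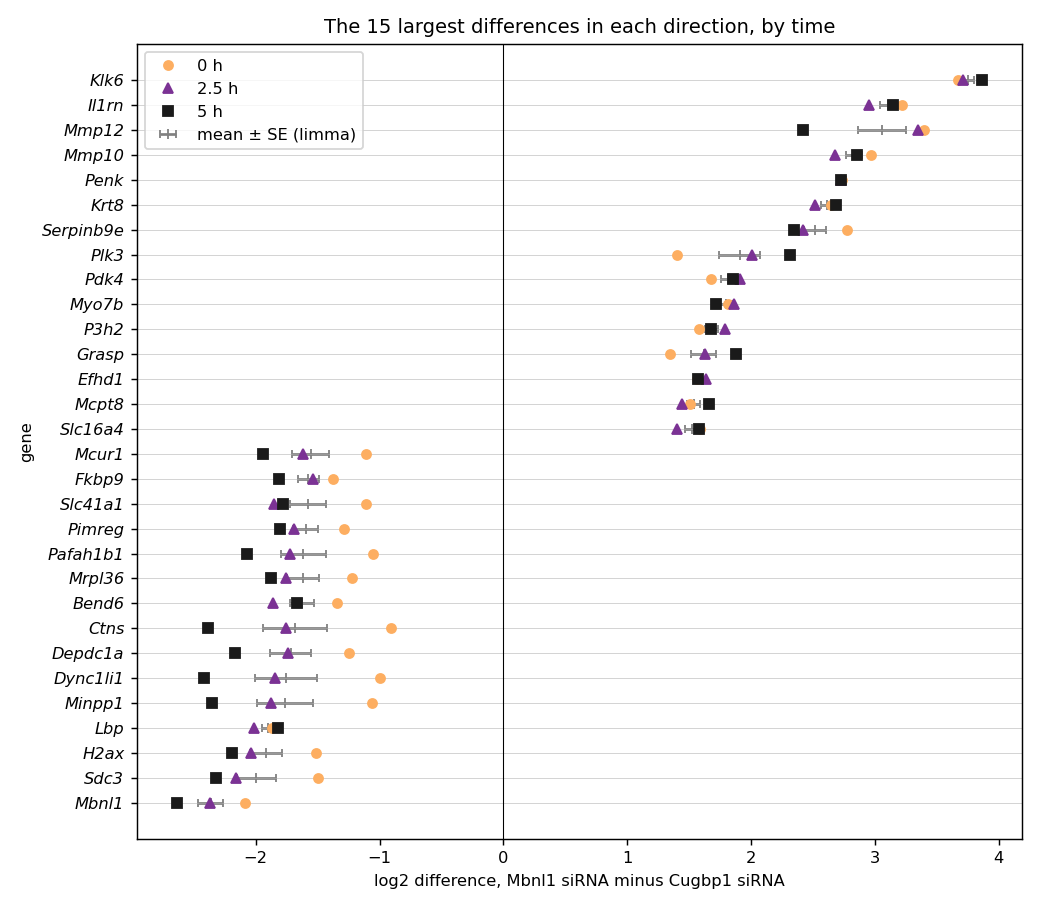
The 15 largest differences in each direction (y axis, 1 gene per row), with the log2 difference of Mbnl1 siRNA minus Cugbp1 siRNA on the x axis at 0, 2.5 and 5 h and the limma mean with its SE in grey. In 14 of the 15 decreases the 5 h point lies farther from 0 than the 0 h point, against 8 of the 15 increases.

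Genes of the cell division cycle were lower with Mbnl1 siRNA almost throughout. Of 68 G2 and mitosis genes tested, 65 were lower and 0 higher, with a median of −0.58, against 30.0% lower and a median of −0.03 over all genes. In 56 of them the level was lower without overlap, against 20.8% of all genes. The size did not follow the time after actinomycin D, since the medians were −0.61, −0.56 and −0.57 at 0, 2.5 and 5 h. The 2 largest decreases were in Depdc1a and Pimreg. Depdc1a was at 7.89, 7.52 and 7.11 with Mbnl1 siRNA and at 9.14, 9.26 and 9.28 with Cugbp1 siRNA. Pimreg was at 9.55, 9.03 and 8.80 with Mbnl1 siRNA and at 10.84, 10.72 and 10.61 with Cugbp1 siRNA. These 2 widened with time, unlike the list as a whole. The genes named next were chosen after their values were seen. Among the kinetochore genes, Knl1 was at 9.94, 9.74 and 9.58 with Mbnl1 siRNA and at 10.85, 10.78 and 10.82 with Cugbp1 siRNA (−1.06 ± 0.07), and Cenpf differed by −0.98 ± 0.06. The spindle checkpoint kinase Bub1b differed by −0.85 ± 0.04. Foxm1, a transcription factor of mitotic genes, was at 10.89, 10.70 and 10.52 with Mbnl1 siRNA, against 11.57, 11.44 and 11.37 with Cugbp1 siRNA (−0.75 ± 0.05, adjusted p = 0.000357). Mki67, the proliferation marker, differed by −0.65 and the mitotic kinase Cdk1 by −0.27. The 3 members that did not pass the test were Ube2s (−0.03), Ccnf (0.08) and Plk1 (0.15).

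DNA replication genes moved the same way by less. Of 50 tested, 46 were lower and 0 higher, with a median of −0.34. In 37 the level was lower without overlap, against 20.8% of all genes. Pola1, the polymerase subunit of the DNA polymerase alpha and primase complex, was at 8.33, 8.48 and 8.56 with Mbnl1 siRNA, against 9.25, 9.51 and 9.56 with Cugbp1 siRNA. Its arms lay apart by −0.98 ± 0.04 (adjusted p = 0.000182). Rfc4 of the clamp loader was at 10.51, 10.54 and 10.43 with Mbnl1 siRNA and at 11.40, 11.34 and 11.22 with Cugbp1 siRNA (−0.82 ± 0.04). All 6 subunits of the MCM helicase were called lower, between −0.38 and −0.24, and so was the sliding clamp Pcna (−0.20 ± 0.04). Without the time term 25 of the 46 were called. Of 24 genes of the G1 phase and its regulators, 11 were lower and 3 higher (median −0.14), among them the pocket protein gene Rbl1 (−0.47 ± 0.04) and the repressor E2f7 (−0.46 ± 0.06), while Ccnd2, the gene of cyclin D2, was slightly higher (0.18 ± 0.04, with overlap). Whether fewer cells in a phase of the cycle or less RNA per cell lies behind a lower level cannot be told apart in bulk RNA.

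The core promoters of these lists are shown because the genes of each moved together. Promoter windows are those of RefSeq for GRCm38.p6, from 250 bases before to 50 after the transcript start, printed 5′ to 3′ in the direction of transcription. Capitals mark the motif searched, on either strand. Of 62 promoters of the G2 and mitosis genes, 40 (64.5%) held TTTGAA, the core of the CHR element, and 47 (75.8%) held CCAAT, against 11.6% and 37.2% of the 10197 promoters of all tested genes. Depdc1a and Cenpf held both motifs.
Depdc1a, chr3:159495183-159495482, plus strand: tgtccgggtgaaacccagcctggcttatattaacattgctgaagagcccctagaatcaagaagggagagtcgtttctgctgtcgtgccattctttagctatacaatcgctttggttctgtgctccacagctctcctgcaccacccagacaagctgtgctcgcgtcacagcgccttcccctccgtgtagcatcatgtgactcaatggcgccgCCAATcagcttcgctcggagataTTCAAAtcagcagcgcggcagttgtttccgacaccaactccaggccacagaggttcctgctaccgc
Cenpf, chr1:189688037-189688336, minus strand: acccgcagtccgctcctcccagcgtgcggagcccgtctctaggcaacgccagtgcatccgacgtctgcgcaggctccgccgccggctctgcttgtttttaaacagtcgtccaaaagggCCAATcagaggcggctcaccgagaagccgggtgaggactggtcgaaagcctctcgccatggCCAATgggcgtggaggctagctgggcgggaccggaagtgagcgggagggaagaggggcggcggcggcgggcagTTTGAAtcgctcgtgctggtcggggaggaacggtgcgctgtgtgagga
Of 50 promoters of the replication genes, 24 (48%) held TTCCCGC or TTGGCGC, letters typical of E2F sites, against 12.3% of all promoters, and Pola1 held 4 such matches.
Pola1, chrX:93632106-93632405, minus strand: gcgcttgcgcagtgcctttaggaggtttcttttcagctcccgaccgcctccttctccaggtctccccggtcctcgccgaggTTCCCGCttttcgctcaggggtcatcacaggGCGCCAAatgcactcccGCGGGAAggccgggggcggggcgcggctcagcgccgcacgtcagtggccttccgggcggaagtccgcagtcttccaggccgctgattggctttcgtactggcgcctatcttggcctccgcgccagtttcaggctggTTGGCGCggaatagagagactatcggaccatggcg
A match describes the letters and shows no binding. Within the lists, genes with and without TTTGAA had medians of −0.55 and −0.60, and genes with and without the E2F-type letters had medians of −0.43 and −0.31.

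Lysosomal genes were higher with Mbnl1 siRNA. Of 37 genes of lysosomal enzymes, membrane proteins, the vacuolar proton pump and their regulators, 29 were higher and 2 lower (median 0.37). In 27 of the 37 the level was higher without overlap, against 14.4% of all genes. All 37 genes had a mean over the filter value in both arms. The largest increase was that of Neu1, a sialidase (0.91), together with the endosomal glycoprotein Cd68 (0.91 ± 0.04). Cd68 was at 9.50, 9.73 and 9.83 with Mbnl1 siRNA, against 8.63, 8.83 and 8.87 with Cugbp1 siRNA. All 12 genes of the proton pump in the list were called higher, between 0.27 and 0.67. Atp6v0d1 of its membrane sector was at 11.94, 12.12 and 12.15 with Mbnl1 siRNA, against 11.26, 11.49 and 11.54 with Cugbp1 siRNA (0.64 ± 0.04, adjusted p = 0.000337). Atp6v1h was at 10.55, 10.65 and 10.70 with Mbnl1 siRNA and at 9.89, 9.95 and 10.04 with Cugbp1 siRNA (0.67 ± 0.04). The arms ran in parallel in both. Gaa, acid alpha-glucosidase (0.63 ± 0.04), Gla, alpha-galactosidase (0.54 ± 0.04), Hexa of beta-hexosaminidase (0.61 ± 0.05) and the protease Ctsd (0.37 ± 0.04) were higher too. These pump and enzyme genes were chosen after their values were seen.

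The mRNAs of Mitf, Tfeb and Tfe3, regulators in the lysosomal list, were not called higher, and their proteins were not measured. Mitf, a transcription factor of lysosomal genes, was at 8.07, 7.62 and 7.20 with Mbnl1 siRNA, against 8.57, 8.40 and 8.04 with Cugbp1 siRNA. It was lower at each time, with overlap between times (−0.71 ± 0.07, adjusted p = 0.00115). Its relatives Tfeb (−0.01) and Tfe3 (0.06) did not pass the test. The membrane protein Scarb2 was lower as well (−0.26 ± 0.04), and Ctns, which is not in the list, was among the 15 largest decreases. Without the time term 17 of the 29 increases were called.

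Of 38 promoters of the lysosomal genes, 11 (28.9%) held TCACGTG, the core of the CLEAR element bound by TFEB and its relatives, against 6.23% of all promoters of tested genes. The 11 genes with the letters had 10 increases, 0 decreases and a median of 0.37. The 20 others with a promoter sequence had 14 increases, 2 decreases and a median of 0.24. Atp6v0d1, Gaa and Gla are shown because they held the motif and were among the larger increases of the list. Where both strands matched, the capitals cover the 8 letters.
Atp6v0d1, chr8:105566015-105566314, minus strand: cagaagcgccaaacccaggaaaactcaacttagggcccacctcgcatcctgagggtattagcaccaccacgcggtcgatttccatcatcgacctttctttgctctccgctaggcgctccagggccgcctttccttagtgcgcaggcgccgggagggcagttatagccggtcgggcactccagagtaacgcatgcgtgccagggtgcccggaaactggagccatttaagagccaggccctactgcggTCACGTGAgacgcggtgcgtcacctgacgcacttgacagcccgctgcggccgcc
Gaa, chr11:119267713-119268012, plus strand: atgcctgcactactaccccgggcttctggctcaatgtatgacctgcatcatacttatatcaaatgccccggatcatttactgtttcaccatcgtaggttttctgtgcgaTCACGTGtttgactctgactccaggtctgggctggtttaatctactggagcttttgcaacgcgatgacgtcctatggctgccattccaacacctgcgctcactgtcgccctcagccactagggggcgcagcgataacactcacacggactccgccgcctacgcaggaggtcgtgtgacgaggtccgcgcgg
Gla, chrX:134600956-134601255, minus strand: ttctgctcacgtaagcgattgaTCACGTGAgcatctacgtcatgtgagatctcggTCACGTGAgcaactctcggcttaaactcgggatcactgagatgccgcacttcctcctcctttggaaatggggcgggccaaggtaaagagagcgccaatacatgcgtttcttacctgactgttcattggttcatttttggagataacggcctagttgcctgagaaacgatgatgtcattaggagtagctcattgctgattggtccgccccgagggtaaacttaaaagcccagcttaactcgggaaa
Gla held 2 separate matches.

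Contractile genes of skeletal muscle were higher with Mbnl1 siRNA, at modest levels of signal. Of 35 tested, 23 were higher and 3 lower, with a median of 0.25, while 30 of the 65 genes in the list were not tested. Tnnc2, Tnni1 and Xirp1, 3 of the increases, passed the filter only through the Mbnl1 siRNA arm, so their means had to be higher there. The share of the tested members overstates that of the whole list. Myom2, a protein of the sarcomeric M-band, was at 8.72, 8.70 and 8.62 with Mbnl1 siRNA, against 7.38, 7.49 and 7.60 with Cugbp1 siRNA. The arms did not overlap (1.19 ± 0.07, adjusted p = 0.000264). The slow troponin I gene Tnni1 was at 8.27, 8.47 and 8.58 with Mbnl1 siRNA and at 7.30, 7.36 and 7.43 with Cugbp1 siRNA (1.08 ± 0.05). The fast troponin T gene Tnnt3 (1.01 ± 0.06), titin (Ttn, 0.83 ± 0.12) and muscle creatine kinase (Ckm, 0.60 ± 0.05) were higher as well. The 3 decreases were in Ank1 (−0.36 ± 0.06), the embryonic myosin light chain gene Myl4 (−0.24) and Musk (−0.19). Without the time term 10 of the increases were called, and 15 without the 2.5 h pair of arrays.

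The regulators of muscle identity went both ways. Of 24 tested, 7 were higher and 7 lower (29.2% each), with a median of −0.08. Among all genes 20.9% were higher and 30.0% lower, so calls in both directions do not set this list apart. Myod1, the myogenic transcription factor, was at 10.30, 9.82 and 9.30 with Mbnl1 siRNA, against 10.89, 10.48 and 10.12 with Cugbp1 siRNA. It was lower at each time, and the arms overlapped only across times (−0.69 ± 0.06, adjusted p = 0.00059). The muscle cadherin gene Cdh15 was at 10.79, 10.84 and 10.98 with Mbnl1 siRNA and at 11.71, 11.73 and 11.77 with Cugbp1 siRNA (−0.86 ± 0.05). Its arms were apart at each time. Myf5 was higher by 0.17 ± 0.04 (adjusted p = 0.0154), with overlap. The increases of Mef2d (0.32 ± 0.05) and Mef2a (0.28 ± 0.04), factors that act with Myod1, were the 2 largest. The arms overlapped in Mef2d, which differed by 0.63 on a second probe set, and not in Mef2a. Of 27 promoters of the contractile genes, 15 (55.6%) held CAGCTG, an E-box of the type bound by MyoD, against 14.9% of all, and members with and without it had medians of 0.26 and 0.22.

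**Figure D5:**
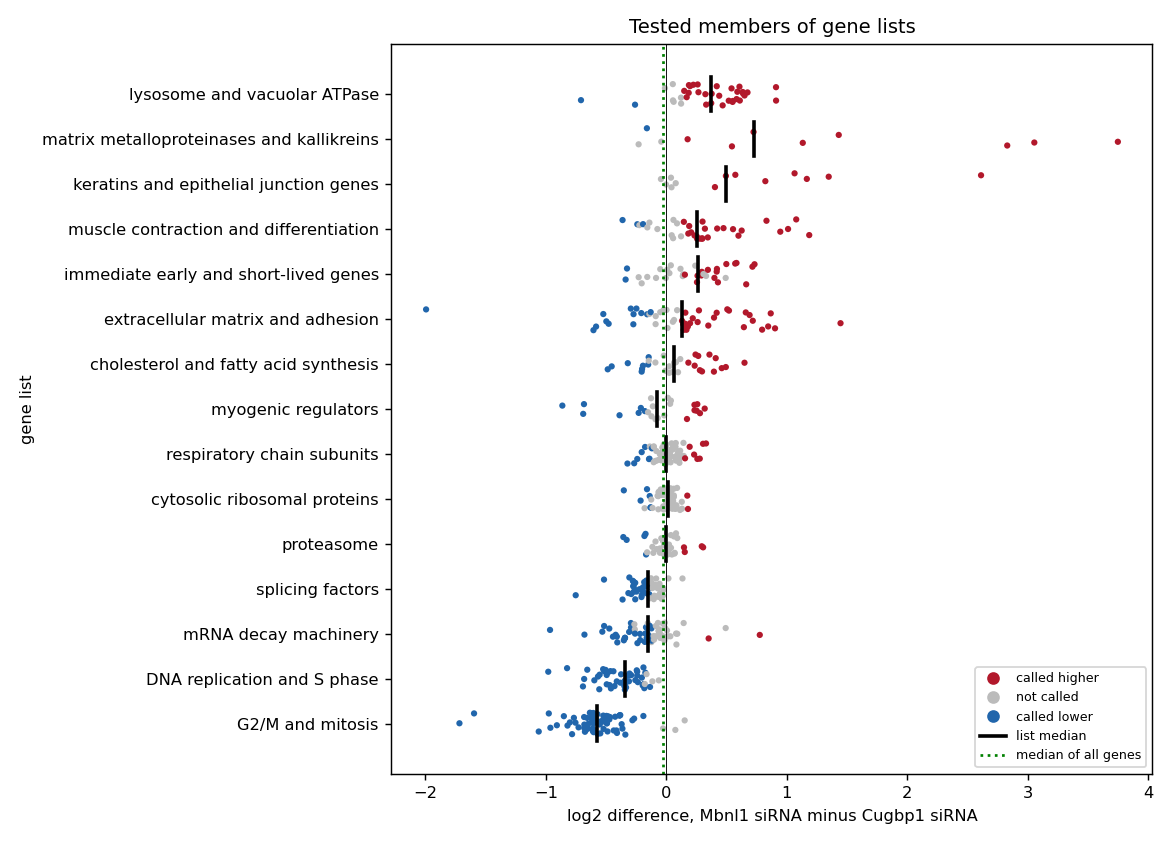
Tested members of gene lists (y axis, 1 list per row) by their log2 difference of Mbnl1 siRNA minus Cugbp1 siRNA (x axis). Red points were called higher, blue lower and grey not called, the black bar is the list's median and the dotted line the median of all tested genes at −0.03. The G2 and mitosis list lies almost wholly to the left (median −0.58) and the lysosomal list mostly to the right (median 0.37).

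Proteases of the matrix and epithelial genes were a small set with large differences. Of 11 metalloproteinases, kallikreins and plasminogen activator genes tested, 8 were higher and 1 lower (median 0.72), while 21 of the 32 genes in the list were not tested. Beside Klk6, Mmp12 and Mmp10 these were the tissue plasminogen activator gene Plat, at 10.53, 10.53 and 10.58 with Mbnl1 siRNA and 9.08, 9.10 and 9.16 with Cugbp1 siRNA, urokinase (Plau, 1.13 ± 0.05), its receptor Plaur (0.72 ± 0.05), Klk10 (0.55 ± 0.05) and Mmp14 (0.18 ± 0.05). Mmp28 was lower by 0.16. Of 13 keratin, cell junction and cornified envelope genes tested, 8 were higher and 0 lower, with a median of 0.50, while 27 of the 40 genes in that list were not tested. Cdh1, the epithelial cadherin, was at 8.66, 8.77 and 8.81 with Mbnl1 siRNA, against 7.27, 7.50 and 7.42 with Cugbp1 siRNA (1.35 ± 0.05). Sprr1a, a cornified envelope protein, was at 12.21, 12.31 and 12.32 with Mbnl1 siRNA and at 11.13, 11.30 and 11.21 with Cugbp1 siRNA (1.07 ± 0.04). The arms did not overlap in either gene. Defining keratinocyte genes such as Krt5, Krt10, Trp63 and Ivl did not pass the filter in these cells, 11 of 13 keratinocyte markers in all, and their summed intensity was 1395 to 1511 with Mbnl1 siRNA and 1357 to 1465 with Cugbp1 siRNA. In each list 2 members passed the filter only through the Mbnl1 siRNA arm (Klk6 and Mmp12, Cldn4 and Pkp3), so their means had to be higher there. Of Cldn4 and Pkp3 only 1 was called higher. The shares of the tested members overstate those of the whole lists.

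Genes of the extracellular matrix and of adhesion were split. Of 49 tested, 25 were higher and 13 lower, with a median of 0.13. Decorin (Dcn) was at 11.11, 11.09 and 11.11 with Mbnl1 siRNA, against 9.58, 9.62 and 9.77 with Cugbp1 siRNA, a difference of 1.45 ± 0.05 without overlap (adjusted p = 9.05e-05). Thrombospondin 1 (Thbs1) was higher by 0.90 ± 0.05, with 13.66, 13.51 and 13.38 against 12.82, 12.53 and 12.48. The laminin chain gene Lamc1 was lower (−0.60 ± 0.04), as was Sdc3. Among regulators of Notch, Wnt and TGF-beta signalling 11 of 41 were higher (26.8%), led by Tgfb2 (0.61 ± 0.05) and Bmp1 (0.53 ± 0.04). Another 14 were lower (34.1%), led by the Wnt pathway repressor Tcf7l1 (−0.88 ± 0.06) and the Notch ligand Jag2 (−0.69 ± 0.04). These shares lay beside 20.9% higher and 30.0% lower among all genes, and the difference was not tested.

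Genes of RNA processing were more often lower than higher. Of 53 splicing factors 29 were lower and 0 higher, with a median of −0.15. Hnrnph2 was at 9.92, 9.85 and 9.49 with Mbnl1 siRNA, against 10.40, 10.56 and 10.57 with Cugbp1 siRNA (−0.75 ± 0.11, adjusted p = 0.00357), and Hnrnpr differed by −0.52 ± 0.08. Of 64 genes of the mRNA decay machinery, 35 were lower and 2 higher, with a median of −0.15. Exosc3, 1 of the decreases, passed the filter only through the Cugbp1 siRNA arm, so its mean had to be lower with Mbnl1 siRNA. Exosome subunits led the decreases: Exosc5 was at 8.02, 8.09 and 8.02 with Mbnl1 siRNA and at 8.87, 9.02 and 9.12 with Cugbp1 siRNA (−0.97 ± 0.06), and Exosc8 differed by −0.68 ± 0.06. The 2 increases were in Tob1, a deadenylation cofactor (0.78 ± 0.11), and Zfp36l1, which binds AU-rich elements (0.35 ± 0.05), both with overlap. These counts depended on the fit: without the 2.5 h pair of arrays 12 splicing factors and 20 decay genes were called lower, and without the time term 8 and 10. Zfp zinc finger genes were a separate list and do not bear on RNA processing as a group. Of 167 tested, 67 were lower and 9 higher, with a median of −0.14. Only 16 of the 167 were lower without overlap, against 20.8% of all genes. In 3 the level was higher without overlap, against 14.4% of all genes.

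Transcripts whose splicing is known to depend on MBNL or CELF proteins in myotonic dystrophy were measured here for their level and not their splicing. Of 20 tested, 10 were higher and 4 lower, with a median of 0.11. Pdlim3, a Z-disc protein, was at 11.99, 11.92 and 11.69 with Mbnl1 siRNA, against 10.64, 10.56 and 10.39 with Cugbp1 siRNA (1.34 ± 0.04, adjusted p = 7.51e-05). Its arms did not overlap, and neither did those of Tnnt3. The lipid phosphatase gene Mtmr1 (−0.62 ± 0.07) and the transcription factor gene Nfix (−0.32 ± 0.04) were lower.

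Short-lived transcripts of the immediate early kind were more often higher. Of 35 tested, 17 were higher and 2 lower, with a median of 0.26. Only 5 of the 35 were higher without overlap, against 14.4% of all genes, so the tendency rests on calls and not on separated arms. In 0 the level was lower without overlap, against 20.8% of all genes. Fosb, 1 of the increases, passed the filter only through the Mbnl1 siRNA arm, so its mean had to be higher there. Atf3, a stress-induced transcription factor, was at 10.10, 9.07 and 8.91 with Mbnl1 siRNA, against 9.18, 8.32 and 8.38 with Cugbp1 siRNA. It was higher at each time (0.73 ± 0.08, adjusted p = 0.00123), although the 0 h Cugbp1 siRNA array lay above the later Mbnl1 siRNA arrays. Egr3 (0.72 ± 0.06) was higher without overlap, while Klf4 (−0.34 ± 0.07) and Egr1 (−0.33 ± 0.07) were lower. Slbp, the stem-loop binding protein of histone mRNAs, was higher by 0.47 ± 0.05, with overlap. Of 21 histone genes 7 were lower (33.3%, near the 30.0% of all genes) and 0 higher. Their medians were −0.41, −0.13 and −0.01 at 0, 2.5 and 5 h. Histone genes of nearly the same sequence may be read by the same probes, which makes single values among them uncertain.

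Cytosolic ribosomal protein, respiratory chain and proteasome genes held few calls, beside 20.9% higher and 30.0% lower among all genes, and that difference was not tested. Of 55 cytosolic ribosomal protein genes, 2 were higher and 6 lower (median 0.01), and of 74 respiratory chain genes 7 and 8 (median −0.00). Of 38 proteasome genes 4 were higher and 5 lower (median −0.01). The mitochondrial ribosomal list held 3 higher and 25 lower of 75 (33.3% lower, near the background), with a median of −0.05. Heat shock genes (4 higher and 3 lower of 22) and genes of the unfolded protein and integrated stress response (8 higher and 7 lower of 37) went both ways, with medians of −0.01 and −0.02.

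Metabolic and stress lists were mixed. Of 31 genes of cholesterol and fatty acid synthesis 12 were higher, led by Hmgcs1, which makes the substrate of HMG-CoA reductase (0.65 ± 0.05), and Cyp51 (0.49 ± 0.05), and 8 lower, led by Stard4 (−0.49 ± 0.11) and Elovl5 (−0.45 ± 0.05). Of 29 genes of the Nrf2 antioxidant response 10 were lower, led by Gclm, the modifier subunit of glutathione synthesis (−0.67 ± 0.05), and 5 higher, led by the metallothionein gene Mt2 (0.49 ± 0.04). Of 13 circadian clock genes 7 were lower and 4 higher. The nuclear receptor gene Nr1d2 was at 8.98, 8.85 and 8.52 with Mbnl1 siRNA, against 10.18, 10.03 and 9.97 with Cugbp1 siRNA. It had the largest difference of that list (−1.28 ± 0.06, adjusted p = 0.000215), and its arms were apart. Of 22 p53 target genes 6 were higher, led by Plk3 and Eda2r (0.72 ± 0.08), and 6 lower, led by Trp53inp1 (−0.74 ± 0.14) and Zmat3 (−0.58 ± 0.06). Among 21 NF-kappaB targets, cytokines and chemokines 5 were higher and 7 lower (median 0.01), so that Il1rn and Lbp did not stand for the list.

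Summed intensities of cell type markers lay apart between the arms in some lists and overlapped in others. The sums are on the linear scale, so bright genes weigh most. Of 22 leukocyte markers 19 did not pass the filter, among them Ptprc, Itgam, Csf1r and Adgre1. Their summed intensity over the whole list was 2882 to 3558 with Mbnl1 siRNA and 1916 to 2257 with Cugbp1 siRNA, with Cd68 and Ly6g as the called members. Ly6g was at 9.83, 10.19 and 10.29 with Mbnl1 siRNA and at 8.32, 8.68 and 8.92 with Cugbp1 siRNA. Smooth muscle markers summed to 11593 to 12544 with Mbnl1 siRNA and to 9374 to 10460 with Cugbp1 siRNA, with 3 of 9 under the filter (Lmod1, Myh11 and Myocd). Fibroblast markers summed to 16312 to 17021 with Mbnl1 siRNA and to 17563 to 17997 with Cugbp1 siRNA, with 6 of 15 under the filter. They held both the increase of Dcn and the decrease of Pdgfrb, a platelet-derived growth factor receptor gene (−1.34 ± 0.05). Neuron and Schwann cell markers summed to 14070 to 15454 with Mbnl1 siRNA and to 17966 to 18829 with Cugbp1 siRNA, with 7 of 13 under the filter, among them Sox10, Syp and Rbfox3. That list held both the increase of Penk and a decrease of the myelin gene Pmp22 (−0.98 ± 0.04). Myoblast markers summed to 23223 to 23774 with Mbnl1 siRNA and to 24647 to 25352 with Cugbp1 siRNA. Adipocyte markers summed to 3251 to 3683 with Mbnl1 siRNA and to 3375 to 3584 with Cugbp1 siRNA, with 8 of 12 under the filter. For osteoblast and chondrocyte markers the sums were 2217 to 4086 and 2295 to 3710, with 10 of 13 under it. Those of endothelial markers were 1005 to 1075 and 954 to 1003, with 9 of 10 under it. The part of any of these markers in the differences above was not tested.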

How the data were processed

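Total RNA of C2C12 myoblasts was measured on Affymetrix whole-transcript arrays, 1 array per siRNA and time. The authors deposited RMA intensity values from Affymetrix Expression Console, per the submitters' processing notes, which name no version. The range of the values shows a linear scale, and they were transformed to log2. RMA gives the arrays a common distribution, so differences are relative to other transcripts. Of 35556 probe sets 21789 had 1 gene symbol, 1621 several and 12146 none in the platform annotation. Named probe sets with a mean log2 of at least 7.39 over the 6 arrays (intensity 167.6, their 50th percentile) were kept, the brightest per gene. Probe sets without a single symbol were tested apart and none is named.

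The limma package (3.58.1, under R 4.3.3) fitted log2 levels by siRNA and time as factors (lmFit, then eBayes), with 2 residual degrees of freedom before moderation and 5.57 after. Benjamini-Hochberg adjustment ran over all 9864 genes, with calls at an adjusted p under 0.05. On simulated data for this comparison, over 9864 genes with 100 changed by each size, the fit recovered 13 at 0.25 and 93 at 0.5. It called 9 unchanged genes and gave 0 wrong signs. Noise was drawn independently per gene and array. Far fewer genes were changed there than the 50.9% called in the data, so the recovered counts need not hold for the data. The 15 largest called differences in each direction with 1 sign at all times, the 2 largest called in each direction of each gene list, a fixed set of genes (Myog, Cdkn1a and Gapdh among it, which had no tested probe set) and the 10 largest changes of the difference between 0 h and 5 h are named by rule. The genes compared and the gene lists were chosen with earlier results of these data known. Lists are described by counts and medians, with no list test. Alternatives changed the time term, the samples in the fit, the moderation, the filter, the scaling, an intensity offset, the probe set rule, and left out each time. Promoter letters come from RefSeq, on GRCm38.p6, for 7986 of the genes tested.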

Additional observations from a re-analysis of the deposited data

Results flagged for a closer look

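Of the 10 genes whose difference between the arms changed most from 0 h to 5 h, 3 had opposite signs at these times, and that the difference changed was not tested, since each time had 1 array per siRNA. The histone gene H4c4 differed by −0.11 at 0 h and by 1.31 at 5 h. Its level was 13.63, 11.92 and 11.72 with Mbnl1 siRNA, against 13.74, 11.11 and 10.41 with Cugbp1 siRNA, so it fell in both arms and fell less with Mbnl1 siRNA. H4c6, a near-identical histone gene that can share probe signal with H4c4, differed by −0.76 at 0 h and by 0.38 at 5 h. Ppargc1a, a coactivator of mitochondrial biogenesis, differed by 0.84 at 0 h and by −0.18 at 5 h. It was at 9.13, 8.15 and 7.60 with Mbnl1 siRNA and at 8.29, 7.80 and 7.78 with Cugbp1 siRNA. None of the 3 passed the test of the mean level (adjusted p = 0.0729, 0.503 and 0.172).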

How the results depend on the processing

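The labels pair the arrays by time. Without the replicate block (no term for time) 624 genes were called higher, 951 lower, and 1575 were called in both fits. In that fit, 25 replication genes, 8 splicing factors and 10 decay genes were called lower, and 17 lysosomal and 10 contractile genes higher. With the 75th-percentile filter, which tests 4883 genes, 1308 were called higher, 1688 lower and 56 over 2-fold, with 6 contractile, 5 protease and 4 epithelial genes called higher. Leaving out 1 time (the same as leaving out either of its arrays) gave 1214 to 1780 higher, 1829 to 2834 lower and 145 to 179 over 2-fold. The lowest counts of higher and of lower genes were without the 2.5 h pair, and the lowest count over 2-fold was without the 5 h pair. Under these 3 settings 12 to 26 splicing factors and 20 to 29 decay genes were called lower (23 decay genes without the 5 h pair), and 15 to 22 contractile genes higher. Without a filter 22 decay genes were called lower. The cause of these shifts was not tested, beyond the fewer genes or arrays used. After quantile normalization again 2368 genes were called higher and 2697 lower, against 2058 and 2959 in the main fit. In that setting 28 decay genes were called lower, against 35. The proteasome median was above 0 with the 75th-percentile filter (0.0058), after quantile normalization again (0.000808) and without the 2.5 h pair (0.00914), and the median of the neuron and Schwann cell markers was 0.00823 without a filter. Of the 166 called genes named by the rule for largest differences, list leaders and fixed genes, 98 kept their call under every tested alternative and 0 changed sign. The 67 lost without the time term, 28 without the 2.5 h pair and 21 without a filter were the most. Equal ribosomal protein medians moved all differences by −0.00214. Dim signal limits the sizes of differences near the filter value.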

Other observations

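Solute carrier genes went both ways in about equal numbers, with 46 higher (28.75%) and 41 lower (25.6%) of 160 tested. These shares lay beside 20.9% higher and 30.0% lower among all genes, and the difference was not tested. The largest increase after Slc16a4 was that of Slc4a11, of the bicarbonate transporter family (1.43), and the largest decrease after Slc41a1 was that of the nucleotide sugar transporter Slc35b4 (−1.28). Of 10 serpin genes 4 were higher and 5 lower. Serpinb2, the inhibitor of urokinase, was at 9.80, 9.93 and 10.19 with Mbnl1 siRNA, against 8.99, 9.16 and 9.07 with Cugbp1 siRNA. Serpinh1, the collagen chaperone of the endoplasmic reticulum, was at 10.58, 10.47 and 10.56 with Mbnl1 siRNA, against 11.43, 11.49 and 11.52 with Cugbp1 siRNA. The arms did not overlap in either gene, and the differences were 0.90 ± 0.08 and −0.94 ± 0.05.

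Pmp22, a protein of peripheral myelin, was at 11.36, 11.40 and 11.26 with Mbnl1 siRNA, against 12.33, 12.33 and 12.28 with Cugbp1 siRNA (−0.98 ± 0.04, adjusted p = 0.000171). Of 37 microRNA genes whose probe sets passed the filter 9 were higher (24.3%, near the 20.9% of all genes). Only 1 was lower (2.7%, beside 30.0%), and of 263 others in the list none was tested. Of the 37, 4 had a Cugbp1 siRNA mean under the filter value, and 2 of these, Mir680-2 and Mirlet7e, were among the increases. The microRNA probe sets read the genes and not the mature microRNAs. Of 19 targets of YAP and TAZ 7 were higher and 4 lower. Ankrd1, among the best known of them, was at 13.11, 12.77 and 12.05 with Mbnl1 siRNA, against 12.63, 11.71 and 10.93 with Cugbp1 siRNA (0.89 ± 0.13).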
